A study of Mus musculus with 19 samples.

Results

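Arc, Bdnf, Homer1, Nptx2, Nptx1, Nptxr, Inhba, Pcsk1, Scg2 and Vgf were grouped as genes for synaptic and secreted products induced by neuronal activity. How strongly activity induces each of them was not measured here. These 10 genes were taken by symbol, through their Ensembl identifiers, from 48709 genes counted by RNA-seq in the CA1 region of the mouse hippocampus, and all 10 passed the filter on low counts. The 19 libraries came from mice aged 7 months in 3 groups. WT control (n = 6) were wild-type littermates, and APP control (n = 6) were APPPS1-21 mice. Both received lipid nanoparticles with a scrambled control oligonucleotide, according to the study. APP anti-miR-mix (n = 7), also called the treated group below, were APPPS1-21 mice whose nanoparticles carried inhibitors of 3 microRNAs (miR-181a-5p, miR-148a-3p as well as miR-146a-5p). The nanoparticles were injected into the dorsal hippocampus on both sides, so every group had been injected and no uninjected mice were compared. The study trained mice of these 3 groups in a water maze after the injection. It does not state whether the sequenced mice were trained, or how long before tissue collection. APPPS1-21 mice express mutant human APP from Thy1 regulatory sequence, mainly in neurons. The titles of the wild-type libraries carry the name of the mixture beside the word control, and the study's account of a control oligonucleotide was followed. The labels number the libraries without naming the mice, so p-values measure the spread between these libraries.

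Synaptic activity reaches the nucleus through calcium entry and kinases that act on factors already bound to DNA, among them CREB, which binds the cyclic AMP response element (CRE). Transcription factors such as Fos and Egr1 appear first, and effector genes change the synapse itself. Some effectors act inside the spine, others are released as ligands, gather receptors outside the synapse or are stored in dense-core vesicles. In the hippocampus many effectors are induced by seizures, exploration and learning, and several of them are read in spinal fluid as markers of synaptic health.

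The treatment was aimed at 3 microRNAs, whose seed (bases 2 to 8) pairs with sites in the 3′ UTR of messenger RNAs. Mature sequences are from RefSeq on GRCm38, with the seed in capitals, and are shown because they decide which effector genes hold a site. The genes of miR-181a-5p lie at chr1:137966468-137966490 and chr2:38852741-38852763 on the plus strand, that of miR-146a-5p at chr11:43374435-43374456 and that of miR-148a-3p at chr6:51269829-51269850, both on the minus strand.
miR-181a-5p: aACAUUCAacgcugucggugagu
miR-146a-5p: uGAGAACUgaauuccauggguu
miR-148a-3p: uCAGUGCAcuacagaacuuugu
The designed inhibitors follow, with the bases that pair with the seed in capitals.
inhibitor miR-181a-5p: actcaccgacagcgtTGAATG
inhibitor miR-146a-5p: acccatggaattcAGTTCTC
inhibitor miR-148a-3p: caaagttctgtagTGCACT
The inhibitors cover 6, 7 and 6 of the seed bases in that order, and the control oligonucleotide (taacacgtctatacgccca) held 0 matches to the 3 seeds.

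For each gene only the protein-coding transcript with the longest annotated 3′ UTR was searched. A site of 7 bases complementary to at least 1 of the 3 seeds stood in this 3′ UTR in 6 of the 10 effector genes. It stood in 34.9% of 15385 genes, whose 3′ UTR had a median length of 1161 bases. The shares are not matched for length, since the 3′ UTR measured 2542 to 4492 bases in the 6 genes with a site and 482 to 1668 in the other 4. Bdnf and Pcsk1 held a site for miR-181a-5p, Nptx1 for miR-148a-3p, Homer1 for miR-181a-5p and miR-148a-3p, Nptxr 2 for miR-181a-5p and 1 for miR-148a-3p, and Inhba 1 each for miR-181a-5p and miR-146a-5p. Arc, Nptx2, Scg2 and Vgf held 0. The Homer1 sites, at chr13:93356622-93356628 and chr13:93357390-93357396, lie far before the end of the gene at 93405129. Homer1 transcripts that run to that end were not searched. One site for each microRNA is shown with its flanks, with the seed match in capitals, at chr2:109726116-109726122 (plus strand), chr13:16030037-16030043 (plus strand) and chr11:119539910-119539916 (minus strand) on GRCm38. A match in the letters is a description and not a known target.
Bdnf, miR-181a-5p: tttttcaagcgTGAATGTgttagtggtta
Inhba, miR-146a-5p: ctactaattatAGTTCTCattcatctgag
Nptx1, miR-148a-3p: atgttccctctTGCACTGaataatacatg

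RefSeq promoter windows were at hand for 5 of the effector genes: Bdnf, Homer1, Inhba, Pcsk1 and Scg2. They were searched on both strands for the letters TGACGT, the core of the CRE, and for the full palindrome TGACGTCA, in which the core counts once on each strand. The core stood in 7.51% and the palindrome in 1.79% of 32851 promoter windows of this length (250 bases before and 50 after the start site, GRCm38.p6). Scg2 and Pcsk1 held the palindrome, and Pcsk1 a further core. Homer1 held 3 cores in 1 of its 2 windows, Bdnf 1 core in 1 of 7 windows, and Inhba 0. The 250 bases before the start site of these 4 genes are shown, since 2 of them (Scg2 and Bdnf) were called lower in the transgenic mice and 2 (Pcsk1 and Homer1) were not. The capitals mark the core or the palindrome, and the core of Bdnf lies on the opposite strand and reads in reverse complement. Its first base stood 68 bases before the start site in Scg2, 36 in Bdnf, 78 in Pcsk1 with the further core at 50, and 56, 40 and 14 in Homer1.
Scg2 (chr1:79440027-79440276, minus strand): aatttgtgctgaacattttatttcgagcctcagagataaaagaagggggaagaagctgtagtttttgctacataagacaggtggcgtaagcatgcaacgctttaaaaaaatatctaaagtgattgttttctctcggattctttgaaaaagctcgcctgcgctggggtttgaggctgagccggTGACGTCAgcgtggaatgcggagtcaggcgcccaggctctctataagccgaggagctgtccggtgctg
Bdnf (chr2:109692186-109692435, plus strand): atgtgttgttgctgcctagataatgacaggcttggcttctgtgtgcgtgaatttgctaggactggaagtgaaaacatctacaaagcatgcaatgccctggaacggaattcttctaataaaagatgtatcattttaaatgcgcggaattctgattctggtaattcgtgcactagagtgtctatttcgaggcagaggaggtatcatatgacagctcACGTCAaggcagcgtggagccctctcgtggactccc
Pcsk1 (chr13:75089607-75089856, plus strand): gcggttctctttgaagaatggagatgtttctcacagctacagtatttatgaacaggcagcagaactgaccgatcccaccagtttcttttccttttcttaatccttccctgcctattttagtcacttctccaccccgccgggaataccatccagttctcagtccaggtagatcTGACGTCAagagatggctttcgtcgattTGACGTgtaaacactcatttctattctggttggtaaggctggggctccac
Homer1 (chr13:93303507-93303756, plus strand): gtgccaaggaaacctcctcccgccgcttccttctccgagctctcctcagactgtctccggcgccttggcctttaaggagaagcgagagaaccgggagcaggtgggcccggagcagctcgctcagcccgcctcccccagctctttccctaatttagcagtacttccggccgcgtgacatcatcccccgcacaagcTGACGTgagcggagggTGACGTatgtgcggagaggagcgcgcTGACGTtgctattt

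Total counts per library ranged from 19362343 to 37018917, and mitochondrial genes took 2.84 to 4.87% of them. All 7 CA1 pyramidal markers examined were counted, with summed normalized counts from 28758 to 46193 per library, beside 2270 to 5069 for 7 dentate gyrus granule markers. Sums were 11869 to 17857 for 6 CA3 pyramidal and 5494 to 8735 for 5 cortex markers. Most of the CA3 sum was Chgb (means of 12658 and 15406 for Chgb and the sum in WT control). Choroid plexus markers were highest in WT control 5, with a sum of 2407, while the highest sum among treated libraries was 1687 (APP anti-miR-mix 6). The Y-linked gene Ddx3y had 749 to 2211 normalized counts and Xist 5.95 to 19.1 in the 19 libraries, although sex is not given in the labels.

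Per length, the effector genes fell into abundant, moderate and rare transcripts. The scale here is reads of a library per kilobase of annotated exon, scaled to a common total of reads (RPKM), with all exons of a gene joined, which lowers the level of genes with long alternative ends such as Homer1 and Bdnf. In WT control (n = 6) Nptxr had the highest level, 108 ± 23.4 (SD), followed by Scg2 at 81.0 ± 7.53, Vgf at 68.4 ± 7.95, Arc at 60.4 ± 18.8 and Nptx1 at 54.6 ± 7.68. Between each of these and the next in this order the difference was smaller than the sum of their SDs. Nptx2 at 9.57 ± 2.97 and Homer1 at 8.20 ± 1.20 formed a lower pair, and Pcsk1 at 4.33 ± 0.843 and Bdnf at 3.92 ± 0.632 another. Inhba stood lowest at 0.309 ± 0.0339 and was read in 33 to 73 raw counts per library, so that counting error weighs most on this gene.

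**Figure D1:**
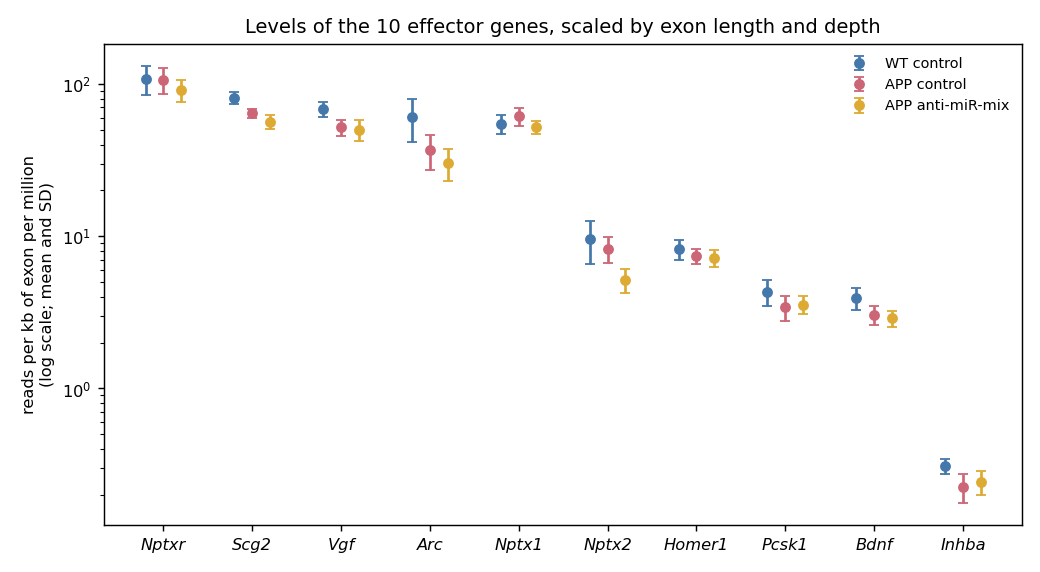
Mean level with SD of each effector gene in RPKM by group (6 WT control, 6 APP control and 7 APP anti-miR-mix libraries) on a logarithmic axis. From Nptxr (108 in WT control) to Inhba (0.309) the levels span the axis.

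The first comparison, APP control against WT control, asked what the amyloid-producing transgenes changed. Arc, Bdnf, Scg2 and Vgf were lower in APP control, and none of the 10 effector genes was called higher. A gene was called at a DESeq2 adjusted p under 0.05, adjusted over all tested genes. Of the 19297 genes tested, 4.71% were called, 3.66% higher and 1.05% lower, against 4 of 10 effector genes lower. The median log2 fold change of the 10 was -0.37 and that of all tested genes -0.01. The 10 genes were chosen with earlier results of these data known, so these contrasts describe the set and do not test it. In bulk tissue, fewer cells of a type and less RNA per cell cannot be told apart.

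The second comparison, APP anti-miR-mix against APP control, asked what the inhibitors changed in transgenic mice, and 0 of the 10 effector genes and 0% of all tested genes were called. At an unadjusted p under 0.05 DESeq2 listed 552 genes and edgeR, which also called 0, listed 572. Each is a smaller share of the 19297 tested genes than the 0.05 expected by chance without any change. The median log2 fold change was -0.13 over the effector genes and -0.0015 over all genes. APP anti-miR-mix was then set against WT control, to see how far the treated mice stood from wild type. Arc, Bdnf, Nptx2, Scg2 and Vgf were lower, with 8.95% of all genes called, 5.59% higher and 3.36% lower, and the medians were -0.44 for the effector genes and -0.02 for all. Both comparisons with WT control share its libraries.

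**Figure D2:**
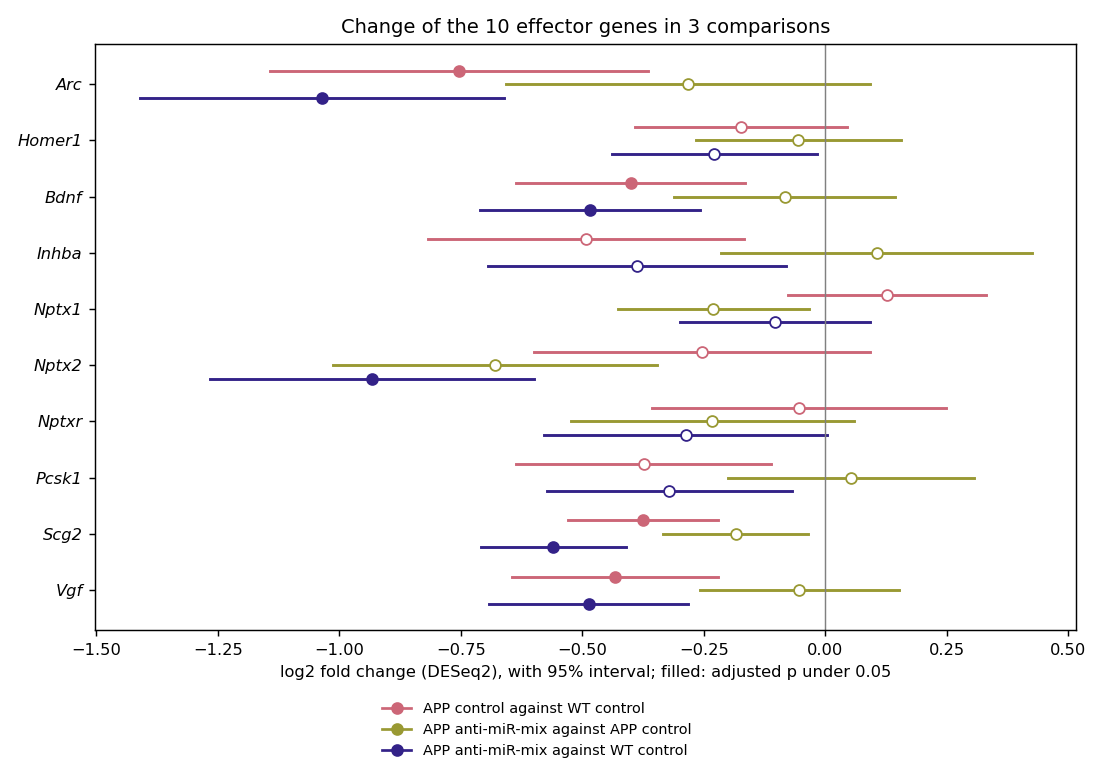
Log2 fold change of each effector gene with its 95% interval in the 3 comparisons, from the DESeq2 fit of all 19 libraries, with filled points for an adjusted p under 0.05. Filled points are Arc, Bdnf, Scg2 and Vgf in APP control against WT control, the same genes and Nptx2 in the treated group against WT control, and no gene in the treated group against APP control.

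Arc and Homer1 act inside the postsynaptic spine. Arc (ENSMUSG00000022602, chr15:74669083-74672570, minus strand) encodes a capsid-forming protein that promotes the removal of AMPA receptors from the synapse, and its messenger RNA travels to active dendrites. Its level, as a read count divided by the DESeq2 size factor of the library (a normalized count, used below), was lowest at 3873, 5099 at the median and highest at 8335 in WT control. In APP control the same values were 2280, 3212 and 4191, and in the treated group 1603, 2697 and 3469. The highest value belonged to WT control 1, 5 of the 6 WT control libraries lay above every APP control library, and all 6 lay above every APP anti-miR-mix library. The means were 5438 ± 1597, 3225 ± 814 and 2652 ± 639 (SD).

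Against WT control, Arc was 1.69-fold lower in APP control (log2 fold change -0.75, SE 0.20, DESeq2 adjusted p = 0.00532), the largest fold change among the effector genes called in this comparison. Its level was 2.05-fold lower in the treated group (log2 fold change -1.04, SE 0.19, adjusted p = 4.37e-06). Between the transgenic groups the log2 difference was -0.28 with a 95% interval from -0.66 to 0.09. Arc also varied most among libraries of a group in APP control and APP anti-miR-mix, with a coefficient of variation of 25.2% and 24.1%, beside 29.4% in WT control.

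Homer1 (ENSMUSG00000007617, chr13:93299635-93405129, plus strand) encodes a scaffold that links metabotropic glutamate receptors to Shank proteins and to calcium stores. Activity induces a short form, Homer1a, which loosens this scaffold, and counts per gene do not separate the short form from the long ones. Homer1 ranged between 2402 and 3758 normalized counts in WT control, between 2071 and 2903 in APP control and between 2048 and 2977 in the treated group, and the 3 ranges overlapped widely. The log2 fold changes against WT control were -0.17 in APP control (95% interval -0.39 to 0.05) and -0.23 in the treated group (-0.44 to -0.02), and neither passed (DESeq2 adjusted p = 0.542 and 0.188).

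Bdnf and Inhba encode secreted ligands. Bdnf (ENSMUSG00000048482, chr2:109674700-109727007, plus strand) is the ligand of the receptor TrkB (Ntrk2) and is needed for lasting potentiation of CA1 synapses. Its normalized counts were 596, 688 and 886 (lowest, median and highest) in WT control, 429, 549 and 670 in APP control and 404, 517 and 600 in the treated group. WT control 4 and WT control 5 stood highest, and 5 of 6 APP control libraries lay below every WT control library. Bdnf was 1.32-fold lower in APP control (log2 fold change -0.40, SE 0.12, DESeq2 adjusted p = 0.0223) and 1.40-fold lower in the treated group (-0.48, SE 0.12, adjusted p = 0.000937) than in WT control.

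The Bdnf call in APP control was the least stable of those reported here. It was lost in 8 of 33 alternatives, with adjusted p from 0.0508 to 0.0974, among them edgeR (0.0608) and the fits without WT control 4 (0.0971), WT control 5 (0.0809), APP control 2 (0.0894), APP control 4 (0.0582) or APP control 5 (0.0539). Bdnf shares exonic positions with Gm45346 on the opposite strand, and counts without known strand do not separate them. Between the transgenic groups Bdnf differed by -0.08 on the log2 scale (95% interval -0.31 to 0.14).

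Inhba (ENSMUSG00000041324, chr13:16011851-16031621, plus strand) encodes the activin beta A chain, whose dimer acts on activin receptors and has been linked to spine growth and protection of neurons. It had 47.0, 59.4 and 67.5 normalized counts among WT control libraries, 32.2, 42.0 and 56.5 in APP control and 36.9, 40.6 and 56.3 in the treated group. The median of each transgenic group lay below the lowest WT control library, and the ranges overlapped through APP control 1 and through APP anti-miR-mix 2, 3 and 5. The log2 fold changes against WT control were -0.49 in APP control (SE 0.17, DESeq2 adjusted p = 0.0577) and -0.39 in the treated group (SE 0.16, adjusted p = 0.104). The first passed in 3 of 33 alternatives, without APP control 1 (adjusted p = 0.0132), without WT control 3 (0.0395) and with a whole number from 1 to 5 that the authors' normalized table carries for each library as a linear term (0.0428).

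Nptx1, Nptx2 and Nptxr encode the neuronal pentraxins, which assemble into complexes that cluster AMPA receptors at excitatory synapses. Nptx2, also called Narp, is the member most strongly tied to activity and is enriched at excitatory synapses onto parvalbumin interneurons, while Nptxr anchors the complexes in the membrane. Nptx2 (ENSMUSG00000059991, chr5:144545902-144557478, plus strand) had 523, 637 and 1169 normalized counts among WT control libraries, 435, 601 and 743 in APP control and 275, 390 and 460 in the treated group. The WT control and APP control ranges overlapped, whereas all 7 APP anti-miR-mix libraries lay below every WT control library, and 5 of the 7 lay below every APP control library. The highest value was that of WT control 4, far above the other 5 of its group (523 to 753).

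Nptx2 was thus the effector gene in which APP anti-miR-mix and APP control stood furthest apart. It was 1.91-fold lower in the treated group than in WT control (log2 fold change -0.93, SE 0.17, DESeq2 adjusted p = 3.27e-06), and the call held in all 33 alternatives. Against APP control the log2 difference was -0.68 (95% interval -1.01 to -0.35, DESeq2 adjusted p = 0.434), which did not pass. The 3′ UTR of Nptx2 held none of the seed matches described above.

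That value depended on a library outside the comparison. All 19 libraries shared 1 estimate of the spread of each gene, and without WT control 4 the difference between the transgenic groups was again -0.68 with an adjusted p of 0.00395. With only the 2 transgenic groups in the fit the adjusted p was 0.0119, and with Xist as a covariate 0.000599, although the few Xist counts did not separate the libraries. In the remaining 30 alternatives it did not pass, edgeR among them, and the log2 difference lay between -0.76 and -0.60 throughout. APP control against WT control gave -0.25 for Nptx2 (95% interval -0.60 to 0.09, adjusted p = 0.592).

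Nptx1 (ENSMUSG00000025582, chr11:119538719-119547753, minus strand) was the only effector gene with a positive log2 fold change in APP control against WT control, 0.13 (95% interval -0.08 to 0.33, DESeq2 adjusted p = 0.7). Its normalized counts ran between 7524 and 10857 in WT control, between 7711 and 11124 in APP control and between 6911 and 9294 in the treated group, and these ranges overlapped. All 7 APP anti-miR-mix libraries lay below the APP control median of 9358, with a log2 difference of -0.23 (95% interval -0.43 to -0.03, adjusted p = 1).

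Nptxr (ENSMUSG00000022421, chr15:79786351-79804766, minus strand) ran between 12753 and 22159 normalized counts in WT control, between 11280 and 19922 in APP control and between 10030 and 16051 in the treated group. The groups overlapped, and the log2 fold changes were -0.05 for APP control against WT control, with a direction that turned in 5 alternatives, and -0.29 for APP anti-miR-mix against WT control (95% interval -0.58 to 0.0038, DESeq2 adjusted p = 0.256). Nptxr shares exonic positions on its own strand with Npcd, so part of its reads cannot be assigned. Within the pentraxins, then, Nptx2 was the gene that passed in a comparison, and it passed against WT control in the treated group.

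Pcsk1, Scg2 and Vgf belong to the dense-core vesicles, which store peptides and release them during sustained firing. Scg2 (ENSMUSG00000050711, chr1:79434669-79440120, minus strand) encodes secretogranin II, a granin that helps to form the vesicles and is cut into secretoneurin. It had 5008, 6119 and 6853 normalized counts among WT control libraries, 4296, 4551 and 5276 in APP control and 3351, 4054 and 4530 in the treated group. APP control 1 and WT control 3 were the only libraries by which the first 2 groups overlapped, and APP anti-miR-mix lay wholly below WT control. The coefficient of variation was 10.03%, 7.32% and 9.73% in the groups in this order, the smallest of the effector genes in each group.

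Scg2 was 1.30-fold lower in APP control (log2 fold change -0.38, SE 0.08, DESeq2 adjusted p = 0.00014) and 1.47-fold lower in the treated group (-0.56, SE 0.08, adjusted p = 6.36e-11) than in WT control. The second of these was the smallest adjusted p of any effector gene in the 3 comparisons. APP anti-miR-mix stood below APP control by -0.18 on the log2 scale (95% interval -0.33 to -0.03), with all 7 libraries under the APP control median, and did not pass (adjusted p = 1).

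Vgf (ENSMUSG00000037428, chr5:137026392-137033351, plus strand) encodes a precursor of several neuropeptides that BDNF induces and that is lowered in spinal fluid in dementia. Its normalized counts were 4774, 6217 and 6603 in WT control, 3739, 4633 and 4963 in APP control and 3483, 4115 and 5269 in the treated group. WT control 5 stood apart at the low end, and the other WT control libraries (5940 to 6603) lay above every transgenic library. Vgf was 1.35-fold lower in APP control (log2 fold change -0.43, SE 0.11, DESeq2 adjusted p = 0.00277) and 1.40-fold lower in the treated group (-0.49, SE 0.10, adjusted p = 0.000145) than in WT control. Between the transgenic groups it differed by -0.05 on the log2 scale (95% interval -0.26 to 0.15).

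Pcsk1 (ENSMUSG00000021587, chr13:75089826-75134861, plus strand) encodes prohormone convertase 1/3, the protease that cuts precursors such as pro-VGF inside the vesicles. It had 552, 707 and 911 normalized counts among WT control libraries, 447, 516 and 697 in APP control and 440, 608 and 661 in the treated group. Every library of both transgenic groups lay below the WT control median (707), and the ranges overlapped, with 3 of 6 WT control libraries above every APP control library and 4 of 6 above every library of the treated group. The log2 fold changes against WT control were -0.37 in APP control (SE 0.13, DESeq2 adjusted p = 0.0846) and -0.32 in the treated group (SE 0.13, adjusted p = 0.1), which did not pass. The first passed in 6 and the second in 4 of 33 alternatives. Both passed without WT control 4, the lowest of its group (adjusted p = 0.028 and 0.043), and with Xist as a covariate (0.00532 and 0.0109). Without APP control 3 and without APP control 6 the first passed as well (0.0453 and 0.0156), and the other alternatives that called Pcsk1 took the replicate number as a block.

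**Figure D3:**
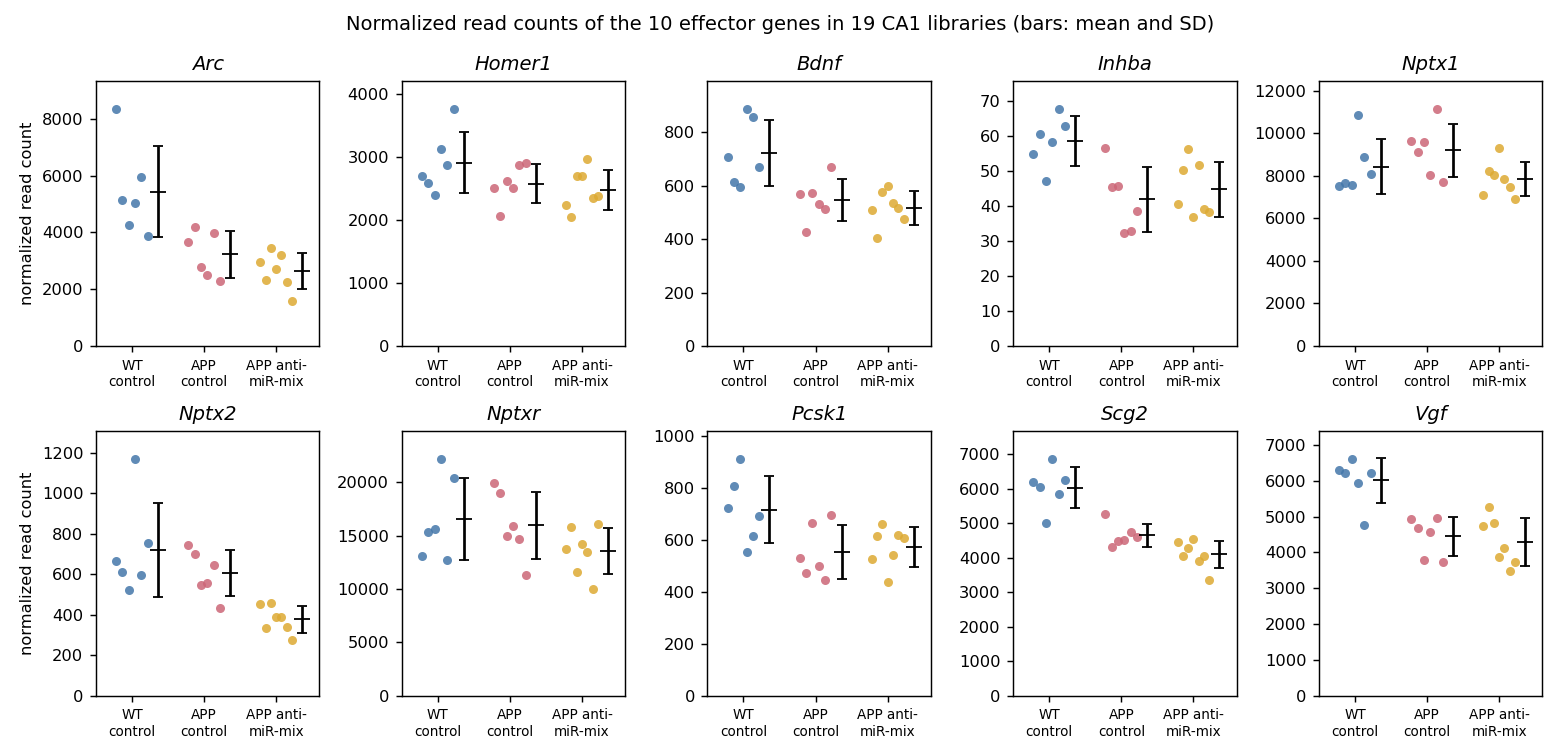
Normalized read count of each effector gene in every library, in order of replicate number within WT control (blue, n = 6), APP control (red, n = 6) and APP anti-miR-mix (yellow, n = 7), with the mean and SD as a black bar, each axis starting at 0. Arc, Scg2 and Vgf step down from WT control to both transgenic groups, and Nptx2 is lowest in the treated group (275 to 460).

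Several other measures moved with these differences. The summed count of 6 pan-neuronal markers ranged between 175845 and 223239 in WT control, between 165457 and 202516 in APP control and between 169369 and 203317 in the treated group, with 0 of 6 markers called and a median log2 fold change of -0.10 in APP control against WT control. CA1 pyramidal markers likewise had 0 of 7 called, with a median of -0.12. In this comparison 0 of the 6 pan-neuronal and 0 of the 7 CA1 pyramidal markers had a positive log2 fold change. Mean sums were 199141 ± 16188 and 37313 ± 5082 (SD) in WT control, and 182196 ± 12164 and 33710 ± 3815 in APP control. In the treated group against WT control 0 of 6 and 2 of 7 were positive, with medians of -0.12 and -0.26. Amyloid-responsive glial markers were higher for 8 of 8 genes in both comparisons with WT control, with sums between 25230 and 48120 in WT control, between 49863 and 134877 in APP control and between 64195 and 117357 in the treated group. Interneuron markers were lower for 2 of 6 genes in each, Gad1 and Gad2 in APP control and Gad1 and Sst in the treated group, with sums from 26570 to 30239, from 22771 to 24953 and from 22384 to 25620. Of all tested genes, 3.66% were called higher and 1.05% lower in APP control. In the treated group these shares were 5.59% and 3.36%. Between the transgenic groups 0 of the 7 CA1 pyramidal markers were called. Their log2 differences ran from -0.55 (Fibcd1) to 0.58 (Wfs1), and 3 were positive. The part of these marker differences in the lower effector genes, or in the Nptx2 difference between the transgenic groups, was not tested. Without WT control 5 and APP anti-miR-mix 6, which had the most choroid plexus markers, the calls of Arc, Scg2 and Vgf in both comparisons and of Bdnf and Nptx2 in the treated group against WT control held.

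The wider activity program was read in lists that did not include the 10 genes. These lists were also chosen with earlier results of these data known. Among 15 immediate early transcription factors, 10 were lower and 1 higher in APP control against WT control, with a median log2 fold change of -0.40. Of all tested genes, 1.05% were called lower and 3.66% higher in this comparison. Nr4a1, an orphan nuclear receptor induced within minutes, fell from 3721 ± 583 to 2189 ± 301 normalized counts (SD, n = 6 each, log2 fold change -0.77, SE 0.12, DESeq2 adjusted p = 3.46e-08), and Egr1 from 4741 ± 606 to 3343 ± 148 (-0.50, adjusted p = 0.00371). Atf3, a factor induced by stress and injury, was the 1 that rose, from 44.0 ± 18.6 to 109 ± 37.4 (log2 fold change 1.30, adjusted p = 0.00021). Against WT control, 3.36% of all tested genes were called lower and 5.59% higher in the treated group. Of the 15 factors, 10 were lower there and Atf3 higher, with a median of -0.43. Nr4a2, called in APP control, did not pass there (-0.15, adjusted p = 0.344).

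A further list held other activity-regulated effectors. Of its 24 genes, 5 were lower and 1 higher in APP control against WT control, with a median log2 fold change of -0.18. Rgs4, a brake on G protein signalling, fell from 6483 ± 589 to 4698 ± 505 normalized counts (log2 fold change -0.46, DESeq2 adjusted p = 4.33e-08), and the others lower were the phosphatases Dusp1 (-0.58) and Dusp4 (-0.51), the kinase Sik1 (-0.43) and the CREB-family repressor Crem (-0.27). Gadd45g, a stress-response gene, was higher (0.31). In the treated group against WT control 10 were lower and 1 higher, with a median of -0.28, and the phosphatase Dusp5 (-0.60) was among the lower genes. Among all tested genes, the shares called lower and higher were 1.05% and 3.66% in APP control, and 3.36% and 5.59% in the treated group.

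The dense-core vesicle genes beside Pcsk1, Scg2 and Vgf were lower for 3 of 22 in APP control against WT control, with a median log2 fold change of -0.16. These were Cadps, which primes the vesicles (-0.17, DESeq2 adjusted p = 0.0202), and the neuropeptide precursors Npy (-0.37, adjusted p = 0.0336) and Tac1 (-0.35, adjusted p = 0.0483). In the treated group against WT control 5 were lower, Cadps2 (-0.55), Sst (-0.44), Npy (-0.42), Cadps (-0.20) and Scg5 (-0.17), and Pdyn, the dynorphin precursor, was higher (0.79, adjusted p = 0.0101). Of all tested genes, 1.05% were called lower in APP control, and 3.36% lower and 5.59% higher in the treated group. Npy, Tac1 and Sst are interneuron transcripts in CA1, and Sst is also on the interneuron marker list above.

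Receptors and partners of the effector genes formed a list of 26. Among these genes, which include TrkB, AMPA and metabotropic glutamate receptors, Shank scaffolds and activin receptors, 1 was lower in APP control against WT control, Sort1, which sorts pro-BDNF (log2 fold change -0.19, DESeq2 adjusted p = 0.0346). In the comparison of treated mice with WT control, Sort1 (-0.26), Gria1 (-0.40, adjusted p = 0.00977) and Gria3 (-0.26, adjusted p = 0.0161), which encode AMPA receptor subunits, were lower. Among 18 upstream kinases, channels and factors such as CREB, 0 were called in APP control against WT control, where Grin2b had the smallest adjusted p (0.27). The treated group differed from WT control in 2 of them, as the NMDA receptor subunit Grin2b was lower (-0.39, adjusted p = 0.00526) and the kinase Mapk3 was higher (0.28, adjusted p = 0.024). Over all tested genes 4.71% were called in APP control and 8.95% in the treated group against WT control. The few calls on these 2 lists stood near those shares.

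Between the transgenic groups 0 genes of any of these 5 lists were called. Every gene of the lists had a DESeq2 adjusted p of 1, and Nr4a2, Ptgs2, Homer3, Cadps2 and Mef2c had the smallest unadjusted p of their lists. Of these Ptgs2, the inducible cyclooxygenase, had the largest log2 difference, -0.62 (unadjusted p = 0.00285), with 152 ± 30.7 normalized counts in the treated group and 234 ± 93.0 in APP control.

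**Figure D4:**
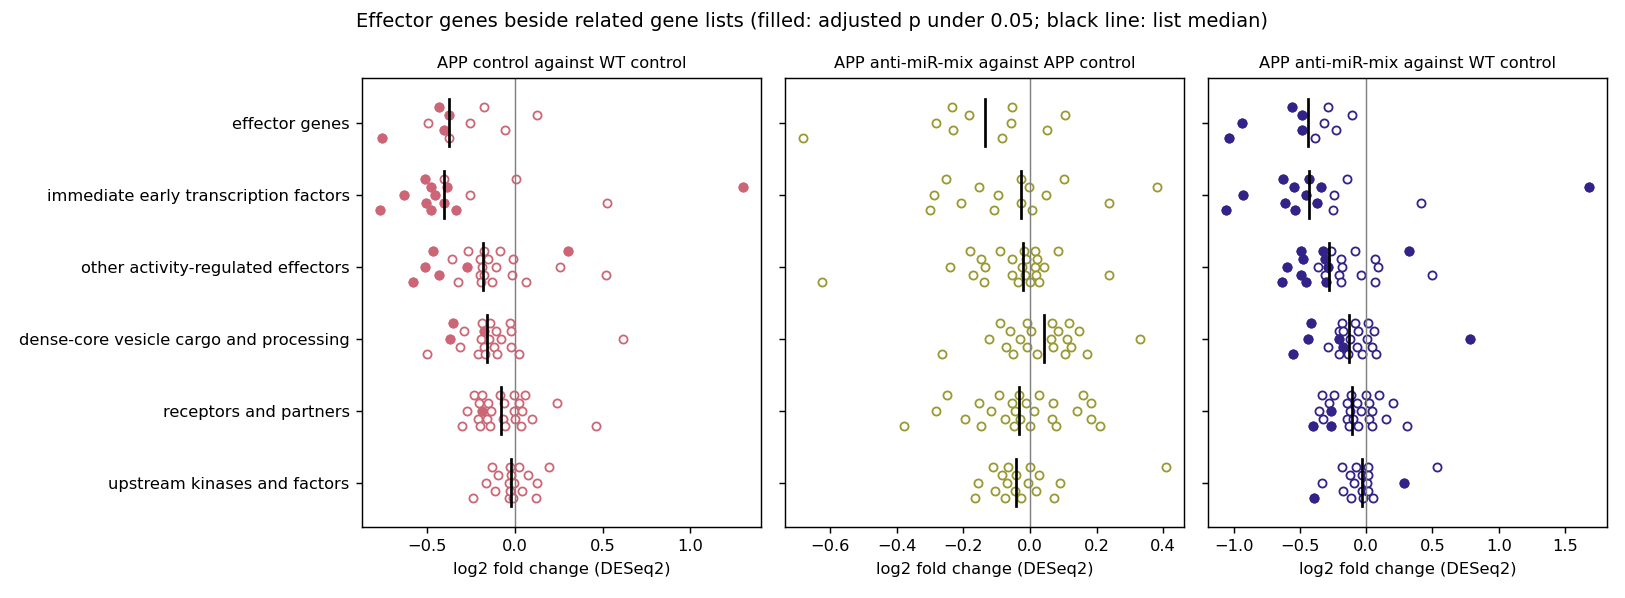
Log2 fold change of each effector gene and of each gene of 5 related lists in the 3 comparisons, with filled points for a DESeq2 adjusted p under 0.05 and a black line at the median of the list; the axes of the 3 panels differ. The medians of the effector genes (-0.37 and -0.44) and of the immediate early factors (-0.40 and -0.43) against WT control lie left of those of the receptors and of the upstream genes.

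Within groups the correlations between effector genes had both signs. Normalized counts on a log2 scale (after adding 1) were centred on the group means, and Pearson's r was taken over the 19 libraries for all 45 pairs. It ranged from -0.64 to 0.73 with a median of 0.20, and 31 pairs were positive. In a permutation test within groups 0 of 45 pairs passed after adjustment, and 9 had an unadjusted permutation p under 0.05. With 19 libraries, a pair that did not pass may still vary together.

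The highest value joined Nptx2 and Scg2 (r = 0.73, Spearman's rho = 0.69, permutation p = 0.00166 and 0.00274, adjusted p = 0.0747 and 0.123). It was 0.75 without the 2 libraries farthest from the Nptx2 median, and 0.86, 0.38 and 0.82 within WT control, APP control and APP anti-miR-mix. Nptx2 and Nptx1 followed with 0.63, which fell to 0.36 without 2 libraries, and Bdnf and Homer1 with 0.62 (0.44 without 2 libraries). Libraries share depth and dissection, which enter all of these values. The lowest values were those of Pcsk1 with Nptx1 (-0.64) and with Nptx2 (-0.62).

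**Figure D5:**
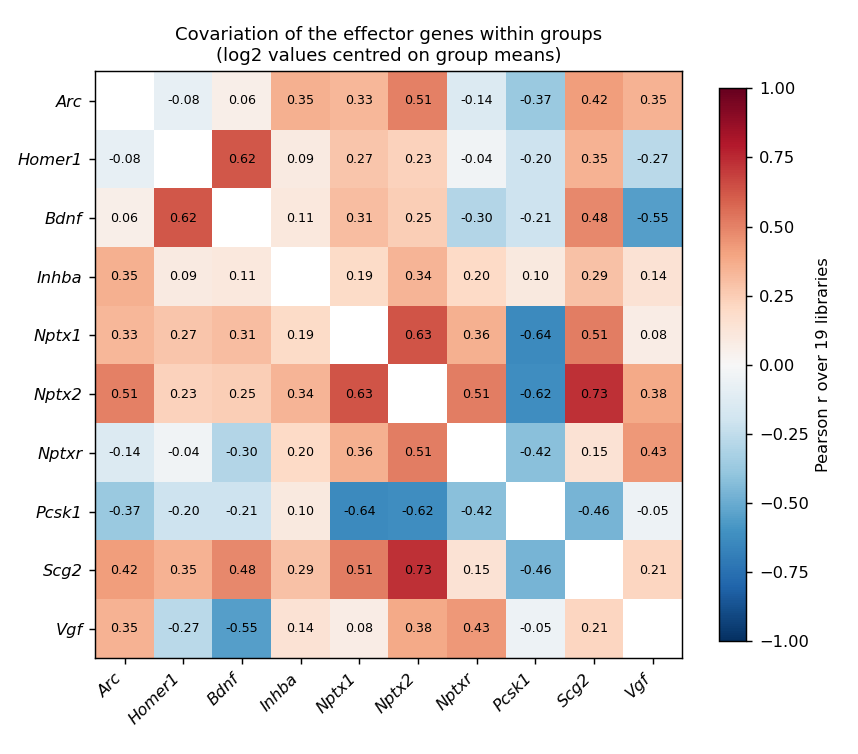
Pearson's r between the effector genes over 19 libraries after centring on group means, from blue (-1) to red (1). Nptx2 and Scg2 give the highest value (0.73), and Pcsk1 is negative with 8 of the other 9 genes.

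Each effector gene had closer companions outside the set, chosen as the 3 genes with the highest r to it over the 19 libraries among 14091 genes with a mean normalized count of at least 50. For Arc these were Nr4a1 (0.92) and Junb (0.88), both immediate early factors, and Pxn (0.87), and 1290 genes lay closer to Arc than its nearest fellow effector gene, Nptx2. For Nptx2 they were Cttn (0.93), Mast3 (0.92) and Evc2 (0.92), and for Scg2 Lefty1 (0.90), Iqgap2 (0.88) and Chn1 (0.86). Bdnf was closest to Zbtb20 (0.92), Kcnd2 (0.90) and Epha4 (0.90), and Homer1 to Ssh2 (0.91), Plekha3 (0.90) and Rab8b (0.90).

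Vgf stood nearest to Rnf41 (0.91), Camk1g (0.90) and Ndufv1 (0.90), and Nptx1 to Elk1 (0.91), Slit1 (0.88) and Prkag2 (0.83). Nptxr gave the highest values of all, with Crym (0.96), Syt17 (0.96) and Cnih3 (0.95), and Pcsk1 followed with Kcnc1 (0.96), Tbc1d30 (0.91) and Rasgef1b (0.91). Inhba, the rarest of the 10, gave the lowest, with Taf3 (0.76), Exoc4 (0.68) and Rnf4 (0.67). These are descriptions of 19 libraries, and the best of many genes are high by selection.

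The seed matches can be set beside the treatment effect gene by gene. The log2 differences count all transcripts of a gene, whereas the matches were searched in a single transcript of each. In the treated group against APP control the 6 genes with a match had log2 differences of -0.08 (Bdnf), -0.06 (Homer1), -0.23 (Nptx1), -0.23 (Nptxr), 0.11 (Inhba) and 0.05 (Pcsk1). The 4 genes without a match had -0.28 (Arc), -0.68 (Nptx2), -0.18 (Scg2) and -0.05 (Vgf). Of the 5 genes with a match for miR-181a-5p, 2 had a positive and 3 a negative value, none of the 10 values passed the test, and the upper bounds of the 95% intervals of Inhba and Pcsk1 were 0.42 and 0.31.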

How the data were processed

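Total RNA of microdissected CA1 was made into poly(A) libraries and read as single ends of 50 bp, per the labels and the study's methods. For the sequencing of injected mice, the study's figure legend names dorsal hippocampal tissue and not CA1. The deposited files hold raw counts of reads for each Ensembl gene, made by the authors with STAR (2.5.2b) on mm10 and featureCounts of Subread (1.5.1), after FastQC (0.11.5), per the labels. The annotation release and the strand setting are not given in the sources used here. Symbols and positions came from GENCODE M21 (GRCm38), which matched 48349 of 48709 identifiers. The authors also deposited 1 table of normalized log2 values (18825 genes). It equals log2(CPM + 1) of the counts plus a slope per gene times a whole number from 1 to 5 per library (99.9998% of the difference), called the adjustment number, whose meaning was not stated. This table was used only as an alternative.

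The 10 genes and all lists were chosen with earlier results of these data known. Every effector gene was named in each comparison. From each related list the called genes were named, at most 6 by smallest adjusted p, or the gene with the smallest adjusted p where none was called (by unadjusted p where adjusted values were tied).

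A gene entered the tests (19297 did) if 50% of the samples or more had 5 counts or more. They were tested with DESeq2 (1.42.0), the study's tool and filter, by Wald tests in 1 fit of all 3 groups, with independent filtering and the threshold at a Benjamini-Hochberg adjusted p of 0.05. DESeq2 replaces outlying counts in groups of at least 7 libraries, here APP anti-miR-mix alone. Intervals are 95% Wald intervals of the log2 fold change. Pairs were tested with 100000 permutations of libraries within groups, two-sided. Alternatives used edgeR (4.0.16), limma (3.58.1), other filters, normalization and samples, covariates, and each library left out. The tests were tried on simulated counts. No 2 libraries of a group agreed within sampling noise (lowest chi-square per gene 4.597). Scripts ran in R (4.3.3) and in Python (3.11.15) with scipy (1.17.1). Sequences came from RefSeq tables on GRCm38, the GENCODE transcripts and, for the inhibitors, the study's list of oligonucleotides.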

Additional observations from a re-analysis of the deposited data

Results flagged for a closer look

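In 30 groups of libraries, 3 for each of the 10 genes, a library far from the rest of its group was looked for with Dixon's criterion at the 95% level. It found 2, and 1.5 would be expected by chance. WT control 4 reached 1169 normalized counts for Nptx2, and the remaining libraries of that group stood at 523 to 753. WT control 5 had only 4774 for Vgf, and the rest of the group stood at 5940 to 6603. WT control 4 also had the highest Bdnf, Nptx1, Nptxr and Scg2 and the lowest Pcsk1 of its group, and WT control 5 the most choroid plexus markers of all libraries. What set these libraries apart was not tested.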

How the results depend on the processing

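The 3 comparisons were refitted under 33 alternatives, 19 of which left out 1 library each. The calls of Arc, Scg2 and Vgf against WT control in both comparisons, and of Bdnf and Nptx2 in APP anti-miR-mix against WT control, held in all 33. Of the 30 fold changes of effector genes, 28 kept their direction in all 33. That of Nptxr in APP control against WT control turned to 0.041 with the adjustment number as a factor and to 0.034 with Xist as a covariate. It ranged from -0.13 to 0.048 when leaving out 1 library, and was above 0 without WT control 4, WT control 6 or APP control 6. That of Pcsk1 between the transgenic groups ranged from -0.0013 (without APP control 5) to 0.13 when leaving out 1 library.

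Between the transgenic groups, 1 effector gene (Nptx2) was called with only the 2 groups compared, 1 with Xist as a covariate, and 0 to 1 when leaving out 1 library (1 without WT control 4). Over all genes 3 were called with only the 2 groups, 4 with Xist, and 0 to 3 when leaving out 1 library. Of the 45 pairs, 0 to 1 passed when leaving out 1 library (1 each without WT control 6, APP control 2 or APP control 6). Called effector genes numbered 3 to 5 for APP control and 5 to 6 for APP anti-miR-mix against WT control over all alternatives. The fits of all genes against WT control gave 621 to 1329 and 1169 to 2371 calls. The cause of these shifts was not tested.

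The labels give the groups the same replicate numbers without saying that they pair the mice. Deviations of same-numbered libraries from their group means had correlations from -0.16 to 0.59 over 14091 genes, and not every library correlated best with its own number. The numbers were not taken as pairs in the main fit. Replicate number and adjustment number ran together in each group, from 1 to 5 in WT control and from 1 to 4 in the transgenic groups. What they share was not tested. With the replicate block in DESeq2, 1222, 1 and 2202 genes were called in the 3 comparisons, with 5, 0 and 6 effector genes (Pcsk1 in addition). A replicate block in edgeR, added after seeing the data, also called Pcsk1 in both comparisons with WT control (adjusted p = 0.0177 and 0.0248, beside 0.00158 and 0.00446 in DESeq2).

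Depth limits Inhba most (33 to 73 counts per library). Counts per gene do not separate the isoforms of Homer1 and Bdnf, and the meaning of the adjustment number is not known.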
